A study of Mus musculus with 9 samples.

Results

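Map3k12 and Pcbp2 are neighbouring mouse genes that overlap tail to tail on opposite strands of chromosome 15, and the 2 entries with these names were followed here through 9 sciatic nerve libraries, out of 25965 gene entries in all. They were chosen by name. The pair came to attention because the Map3k12 entry had high counts while lying over Pcbp2, so its level is a description and carries no test, and the question asked is which gene those counts can stand for. The nerves came from C57BL/6 mice in 3 groups, namely control littermates, PINCH1 mutants and PINCH2 mutants, with 3 libraries in each group. A library was a pool of 4 nerves taken from 1 male and 1 female, stripped of the outer connective tissue sheath (the epineurium), and a pool hides the spread between animals. The sciatic nerve contains axons but few neuronal cell bodies, which sit in the spinal cord and its ganglia. The age stands as postnatal day 15 in one label and as day 14 in the protocol, and the sources used here do not say how the mutants were made or which cells lack the protein.

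Map3k12 encodes dual leucine zipper kinase (DLK), a kinase of neurons and their axons. After an axon is damaged, DLK switches on a relay of MAP kinase kinases and the Jun N-terminal kinases (JNK), carried along the axon on scaffold proteins, and the relay ends in transcription factors such as Jun and Atf3 that take part in regeneration as well as in degeneration. Pcbp2 encodes poly(C)-binding protein 2, an RNA-binding protein with KH domains that is made in most cells, controls the stability and translation of mRNAs and also acts as an iron chaperone that delivers iron to ferritin. PINCH1 and PINCH2, the products of Lims1 and Lims2, are adaptors of the integrin-linked kinase complex at sites where cells hold on to the matrix.

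Libraries held 957828 to 1204964 counts, with 9674 to 11240 entries at 1 count or more. The Lims1 entry had 3 to 7 counts in controls, 0 to 3 in PINCH1 mutants and 0 to 9 in PINCH2 mutants, and the Lims2 entry had 1 to 9, 1 to 5 and 1 to 5, too few to check the genotype labels. Genes of peripheral myelin were abundant, as in nerve, with 3483 to 5332 counts for Pmp22 (peripheral myelin protein gene) and 1472 to 3645 for Mbp (myelin basic protein gene). None of the libraries was set aside.

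In GRCm38, the build of the counts, the table places Map3k12 (ENSMUSG00000023050) on the minus strand at positions 102497649 to 102517064 and Pcbp2 (ENSMUSG00000056851) on the plus strand at 102470632 to 102500059. In the GENCODE M21 annotation their exons share 1573 bp, chr15:102498489-102500061. This stretch is 17.5% of the 8989 bp of merged Map3k12 exons and 30.2% of the 5203 bp of merged Pcbp2 exons. It lies in the last exon of each gene. On the Map3k12 side it is 3′ UTR with 0 coding bases, and the coding sequence ends 20 bases beyond it. On the Pcbp2 side it opens with 34 coding bp, followed by the stop codon and the 3′ UTR. Of 8 annotated Map3k12 transcripts 3 reach into the stretch and 1 covers it, and of 31 Pcbp2 transcripts 14 reach into it and 3 cover it. Outside the stretch 7416 bp of Map3k12 exons and 3630 bp of Pcbp2 exons remain.

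The first pair of sequences shows the same bases read on each strand where Pcbp2 ends its protein. A short sequence from the GENCODE M21 transcripts of GRCm38 is given for each gene, 5′ to 3′, with the stop codon of Pcbp2 (or its complement) in capitals (chr15:102498496-102498525).
Pcbp2, plus strand: tcggagacaggtggcatggggagcagcTAG
Map3k12, minus strand: CTAgctgctccccatgccacctgtctccga
The next shows the end of the Map3k12 coding sequence, just outside the shared stretch, with its stop codon in capitals (chr15:102500081-102500110, minus strand).
Map3k12, minus strand: ttgcggcccccagcctcccttcctccaTGA
A read from the first window carries the same letters for both genes, and only its strand tells them apart.

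A second opposite-strand gene lies farther inside Map3k12. Gm10337 (ENSMUSG00000071586), a short gene model of 165 bp annotated as protein coding on the plus strand, shares 159 bp with a coding exon of Map3k12 and 0 bp with Pcbp2, and it is 3663 bp from the stretch shared with Pcbp2. Both sequences are shown because this is the other place where counts under the Map3k12 name have an entry on the opposite strand. Capitals mark the shared bases (chr15:102503725-102503883, minus strand, for Map3k12 and chr15:102503722-102503886, plus strand, for Gm10337), taken from the same annotation.
Map3k12, minus strand: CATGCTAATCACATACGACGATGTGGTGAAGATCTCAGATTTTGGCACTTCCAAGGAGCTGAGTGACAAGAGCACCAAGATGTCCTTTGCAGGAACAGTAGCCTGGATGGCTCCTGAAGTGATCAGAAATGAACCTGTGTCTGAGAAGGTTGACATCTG
Gm10337, plus strand: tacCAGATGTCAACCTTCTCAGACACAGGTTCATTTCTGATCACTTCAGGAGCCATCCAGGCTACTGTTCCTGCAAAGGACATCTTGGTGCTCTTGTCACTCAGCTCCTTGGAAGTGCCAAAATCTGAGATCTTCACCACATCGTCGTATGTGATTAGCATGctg

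**Figure D1:**
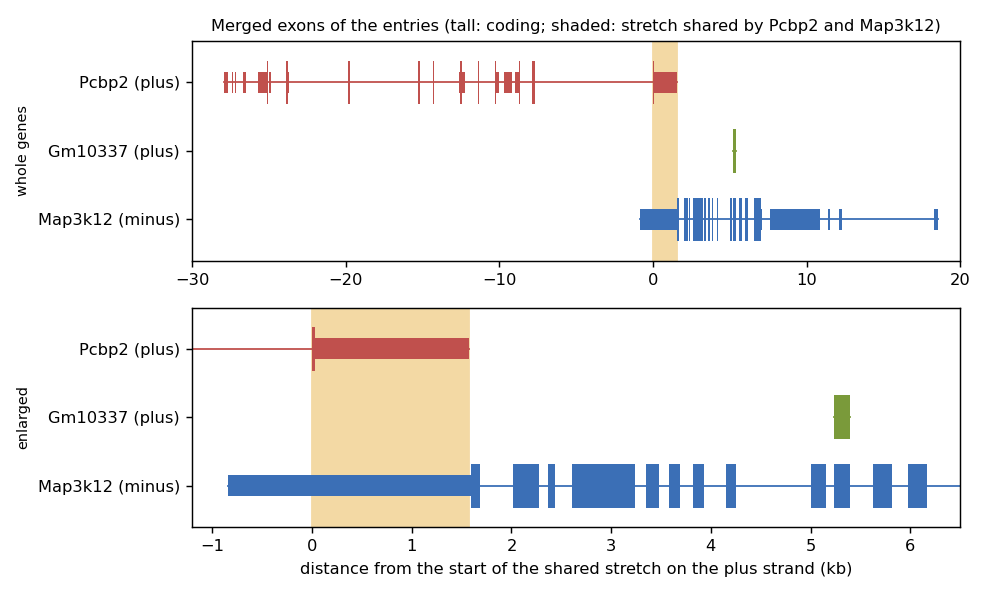
Map of the Map3k12 and Pcbp2 exons in GENCODE M21, with distance in kb from the start of the shared stretch on the x axis, boxes for merged exons (tall where coding) and a row for each gene, for whole genes above and enlarged below. Pcbp2 runs to the right and Map3k12 to the left, the shared stretch of 1573 bp lies in the last exon of both, and Gm10337 sits over a coding exon of Map3k12 away from Pcbp2.

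The Map3k12 entry was among the most counted entries of the nerve. It had 7069, 5594 and 5691 counts in controls, 4881, 5645 and 6355 in PINCH1 mutants and 5499, 6945 and 7082 in PINCH2 mutants. The highest values were those of PINCH2 mutants 2 and 3 and control 1, the lowest that of PINCH1 mutant 1, and the 3 groups overlapped. It ranked 10 to 17 among the 25965 entries and took 0.462% to 0.677% of a library. Scaled to 1000000 counts of the library total (CPM), the level was 6051 ± 600 in PINCH2 mutants, 5774 ± 866 in controls and 5264 ± 636 in PINCH1 mutants (SD, n = 3), and neighbours in this order were closer together than the spread within groups. In these whole-nerve samples, fewer cells of a type and less RNA per cell cannot be told apart.

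The Pcbp2 entry was lower in every library. It had 485, 469 and 546 counts in controls, 426, 434 and 547 in PINCH1 mutants and 376, 570 and 620 in PINCH2 mutants. The PINCH2 mutants held both the lowest and the highest value, and the groups overlapped. Its level was 483 ± 102 CPM in PINCH2 mutants, 471 ± 22.8 in controls and 437 ± 29.01 in PINCH1 mutants (SD, n = 3). PINCH2 mutants and controls were closer together than the spread of the PINCH2 mutants, while the means of controls and PINCH1 mutants lay farther apart than the SD of either group, although single libraries of both groups overlapped. It ranked 289 to 436. Map3k12 had 10.4 to 14.6 times the counts of Pcbp2, with a mean ratio of 12.4 ± 1.44 (SD, n = 9). Per kilobase of merged exon the levels were 634 ± 78.5 CPM for Map3k12 and 89.1 ± 11.2 for Pcbp2 (SD, n = 9).

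**Figure D2:**
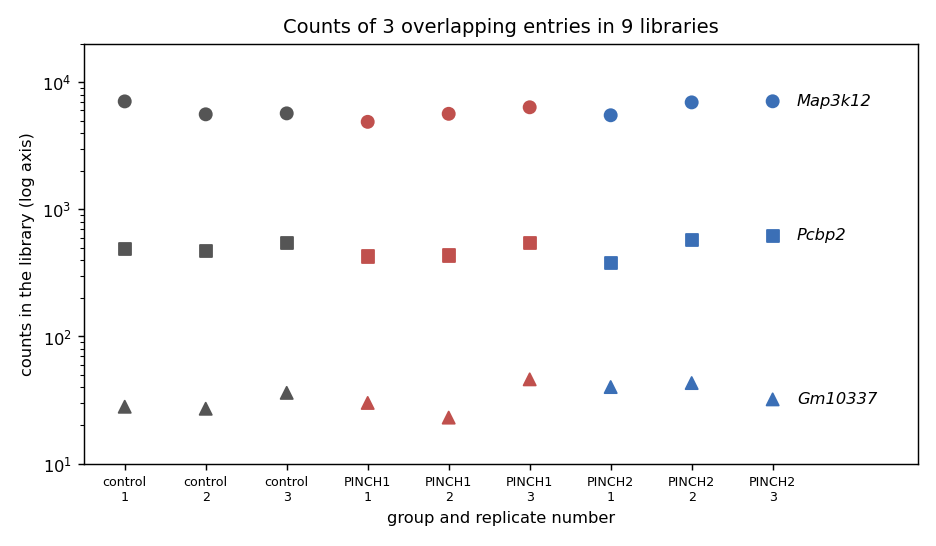
Counts of Map3k12, Pcbp2 and Gm10337 in each of the 9 libraries, with libraries grouped by genotype on the x axis and counts on a log y axis, a point for each library. Map3k12 lies between 4881 and 7082 counts, Pcbp2 between 376 and 620 and Gm10337 between 23 and 46, with overlapping groups for each.

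Which gene the Map3k12 counts stand for depends on the strand from which reads were counted, and the sources used here give neither the strandedness of the library kit nor the strand setting of the counting. The same limit holds for every other entry given here, so a low count does not show that a gene's RNA was scarce. Where in its exons an entry collected its counts was not analysed here. If all counts under the Map3k12 name came from the 1573 bp shared with Pcbp2, that stretch would hold 310 to 450 Map3k12 counts per 100 bp. Spread over all merged Map3k12 exons they come to 54.3 to 78.8 per 100 bp. The same sums for Pcbp2 are 23.9 to 39.4 counts per 100 bp over the shared stretch and 7.23 to 11.9 over its own merged exons. Thus a count of Pcbp2 RNA under the Map3k12 name could come only from the 17.5% of the Map3k12 exons that the annotation shares with Pcbp2, while a count of Map3k12 RNA under the Pcbp2 name could come only from 30.2% of the Pcbp2 exons. These shares cover annotated exons of spliced RNA. Unspliced Pcbp2 RNA would also reach the part of the last Map3k12 exon that extends into a Pcbp2 intron.

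Gm10337 was read as well, because it lies on the plus strand over a coding exon of Map3k12, away from Pcbp2. Whether counts under the Gm10337 name come from Map3k12 RNA was not tested. Gm10337 had 28, 27 and 36 counts in controls, 30, 23 and 46 in PINCH1 mutants and 40, 43 and 32 in PINCH2 mutants, with overlapping groups. Over its 159 shared bp this was 14.5 to 28.9 counts per 100 bp, with a mean of 21.3 ± 4.93 (SD, n = 9). The counts of Pcbp2, placed on the stretch it shares with Map3k12, had a mean of 31.6 ± 5.02 per 100 bp (SD, n = 9). The ratio of the density of Pcbp2 to that of Gm10337 ran from 0.950 to 1.96, and the Pcbp2 density was the higher in each library except PINCH2 mutant 1. These ratios hold only if all Pcbp2 counts are placed on the shared stretch, a placement that the files do not show. Over all of their own merged exons the order was the other way. The means were 9.55 ± 1.52 per 100 bp for Pcbp2 and 20.5 ± 4.75 for Gm10337 (SD, n = 9). For Gm10337 almost all of its bases are shared, so its counts cannot be told apart from those of the Map3k12 exon beneath it.

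The levels of Map3k12 and Pcbp2 were also set side by side across the 9 libraries, which share their depth and genotype. In CPM, Pearson's r was 0.579 (exact permutation p = 0.104, adjusted over 3 relations 0.312) and Spearman's rho was 0.35 (exact permutation p = 0.359, adjusted 0.74). Without control 1 and PINCH2 mutant 3, the libraries farthest from the median of Map3k12, r was 0.193 over 7 libraries, so the value rests on those libraries. Map3k12 and Gm10337 had r = -0.187 (exact permutation p = 0.625, adjusted 0.633) and rho = -0.267 (exact permutation p = 0.493, adjusted 0.74), with r = 0.0972 without the same libraries. Pcbp2 and Gm10337 had r = -0.195 (exact permutation p = 0.633, adjusted 0.633) and rho = 0.0333 (exact permutation p = 0.948, adjusted 0.948), with r = 0.312 without PINCH2 mutants 1 and 3. None of the 3 relations passed. Within a genotype there are 3 libraries, too few for a correlation.

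PINCH1 mutants were set against controls to ask whether either entry differs when PINCH1 is mutated. Neither passed. Map3k12 was at a log2 fold change of -0.13 (SE 0.16, edgeR adjusted p = 0.937), a ratio of 0.914 with a 95% interval from 0.724 to 1.16. Pcbp2 was at -0.10 (SE 0.18, edgeR adjusted p = 0.967), a ratio of 0.934 from 0.725 to 1.20. Both entries passed the filter on low counts, 0 of the 2 were called, and 0.0633% of the 4738 tested entries were. The groups of libraries overlapped for both, while they did not overlap for 13.7% of the tested entries. The median log2 fold change of all tested entries was -0.02, and 302 entries had an unadjusted p under 0.05, neither Map3k12 nor Pcbp2 among them. Without control 1, the log2 fold change of Map3k12 was 0.06 rather than -0.13.

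For PINCH2 mutants the same question was put, against the same control libraries. Map3k12 was at a log2 fold change of 0.08 (SE 0.16, edgeR adjusted p = 0.999), a ratio of 1.06 with a 95% interval from 0.840 to 1.34. Pcbp2 was at 0.06 (SE 0.18, edgeR adjusted p = 0.999), a ratio of 1.05 from 0.812 to 1.35. Again 0 of the 2 were called, against 0.0211% of tested entries, and both had overlapping groups, against 9.05% of entries without overlap. An unadjusted p under 0.05 was found for 202 entries, neither of these included. Leaving out PINCH2 mutant 3 put Map3k12 at -0.01 and Pcbp2 at -0.12, and leaving out control 3 put Map3k12 at -0.01.

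Between the mutants, as PINCH1 minus PINCH2, Map3k12 was at -0.21 (SE 0.16, edgeR adjusted p = 0.938), a ratio of 0.862 with a 95% interval from 0.682 to 1.09. Pcbp2 was at -0.16 (SE 0.18, edgeR adjusted p = 0.972), a ratio of 0.893 from 0.693 to 1.15. Of the 2 entries 0 were called, against 0.0844% of those tested, and their groups overlapped, against 11% without overlap. Here 301 entries had an unadjusted p under 0.05, and neither Map3k12 nor Pcbp2 was one of them. DESeq2 and limma-voom also called neither entry in any of the 3 comparisons. The intervals of both entries lay between ratios of 0.682 and 1.35 in each comparison, and differences within them could not be detected with 3 pools a group. Without PINCH2 mutant 3, Pcbp2 was at 0.02 rather than -0.16.

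**Figure D3:**
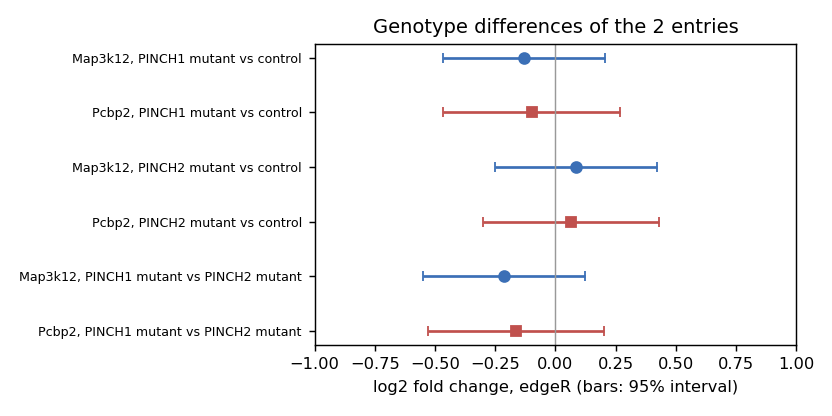
Log2 fold changes of Map3k12 and Pcbp2 in the 3 comparisons (x axis, log2 scale; points for the edgeR estimate, bars for the 95% interval). Each interval spans 0, and the estimates for Map3k12 lie at -0.13, 0.08 and -0.21.

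The split of counts between the entries was tested as a single value for each library. Pcbp2 held 7.64% ± 1.17 of the summed Map3k12 and Pcbp2 counts in controls, 7.70% ± 0.486 in PINCH1 mutants and 7.34% ± 0.851 in PINCH2 mutants (SD, n = 3). The share ran from 6.4% to 8.75% over all libraries, and the groups overlapped. PINCH1 mutants differed from controls by 0.0605 percentage points (two-sided exact permutation p = 1), PINCH2 mutants from controls by -0.292 (exact permutation p = 0.7) and PINCH1 from PINCH2 mutants by 0.352 (exact permutation p = 0.7). Adjusted over the 3 comparisons each p was 1, and the smallest p that 3 against 3 libraries allow is 0.1.

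The level of the Map3k12 entry stood above those of its relatives. DLK belongs to the mixed lineage kinases, of which 7 had an entry. The other 6 had 0 to 34 counts in any library, and the highest among them was Map3k11 (MLK3), at 4.06 CPM per kilobase of exon where Map3k12 was at 634. Map3k13 encodes leucine zipper-bearing kinase (LZK), the closest relative of DLK. It had 1 to 11 counts, or 0.554 CPM per kilobase. Map3k10 (MLK2) had 0 to 5 counts and Map3k20 (ZAK, entered as B230120H23Rik) 0 to 7, while Map3k9 (MLK1) and Map3k21 (entered as BC021891) were at 0 in every library, where 3 counts are the upper limit a 0 allows and that limit covers counting error only. Of these 6 entries 3 also lie over a gene of the opposite strand. Map3k11, the only other one tested, was at log2 fold changes of -0.36 in PINCH1 mutants and 0.17 in PINCH2 mutants against controls and -0.53 between the mutants, and it was not called.

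**Figure D4:**
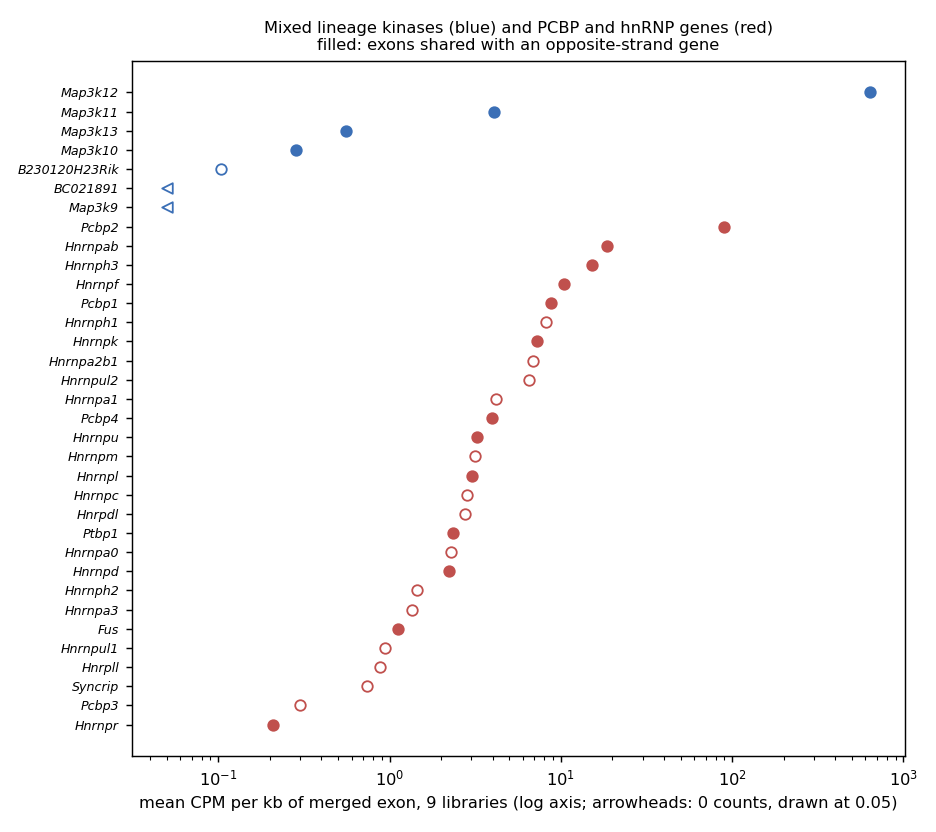
Levels of the mixed lineage kinase entries and of the PCBP and hnRNP entries, as the mean CPM per kilobase of merged exon over 9 libraries (log x axis), filled where the exons overlap an opposite-strand gene and with arrowheads for 0 counts. Map3k12 and Pcbp2 lie above the other entries of their families, with means of 634 and 89.1.

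Entries for partners of DLK downstream mostly had low counts as well, with the counting strand unknown. Of 12 entries for the JNK relay and for proteins that scaffold or turn over DLK, Mapk8ip3 (JIP3, a scaffold that links JNK signalling to axonal transport) was highest, at 1352 to 1863 counts and 102 CPM per kilobase. It lies over Mrps34 and Nme3 on the opposite strand, each with 13 counts over all libraries. Spag9 (JIP4), a related scaffold, had 36 to 99 counts and Mapk8ip1 (JIP1) 25 to 81. Entries for the kinases themselves were low. Map2k7 (MKK7) had 2 to 15 counts, Map2k4 (MKK4) 0 to 1, Mapk8 (JNK1) 0 to 5, Mapk9 (JNK2) 0 to 9 and Mapk10 (JNK3) 5 to 25. Mycbp2, the ubiquitin ligase that marks DLK for removal, had 5 to 25. Of the 12 entries 5 were tested and 0 were called in any of the 3 comparisons. Their median log2 fold changes were -0.41 in PINCH1 mutants, -0.12 in PINCH2 mutants and -0.24 between the mutants, beside -0.02, 0.00 and -0.02 over all tested entries. Spag9 was at -0.88 in PINCH2 mutants (SE 0.26, edgeR adjusted p = 0.999) and Mycbp2 at -1.58 in PINCH1 mutants (SE 0.58, edgeR adjusted p = 0.599).

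Entries for genes that DLK signalling raises after injury gave few counts. With the counting strand unknown, this does not show that RNA of these genes was scarce. Of 14 such entries, 8 never had more than 3 counts in a library, among them Gap43, a growth cone protein gene, and 3 of these (Sprr1a, Ecel1 and Npy) were at 0 throughout. Jun had 0 to 7 counts and Atf3 0 to 5. Ddit3, a stress-induced transcription factor gene that overlaps Mars, had 61 to 102, Gadd45a 6 to 22 and Stat3 7 to 22. These 3 were tested, 0 were called, and their median log2 fold changes were -0.19 in PINCH1 mutants, -0.14 in PINCH2 mutants and 0.11 between the mutants.

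Pcbp2 also stood above its family. Pcbp1, the gene for the closest relative, had 10 to 24 counts (8.73 CPM per kilobase), Pcbp4 7 to 34 (3.97) and Pcbp3 0 to 5 (0.299). Hnrnpk, the gene for another RNA-binding protein with KH domains, had 36 to 66 counts (7.21 CPM per kilobase). Over the 26 PCBP and heterogeneous nuclear ribonucleoprotein (hnRNP) entries other than Pcbp2, counts ran from 0 to 75 in a library and the mean level from 0.210 to 18.7 CPM per kilobase, with a median of 2.91, against 89.1 for Pcbp2. Hnrnpab was the highest of them. Of these 26 entries 12 share exon bases with an opposite-strand gene and 14 do not. With Pcbp2 included, 23 of the 27 entries were tested and 0 were called. Below 0 were 17 in PINCH1 mutants (median -0.26), 17 in PINCH2 mutants (median -0.12) and 14 between the mutants (median -0.05), while over all tested entries 52.24%, 49.35% and 52.55% were below 0. Over the mixed lineage kinase, JNK relay, injury, PCBP and hnRNP and iron lists together, 36 entries were tested. Unadjusted edgeR p was under 0.05 for 4 of them in PINCH1 mutants, 3 in PINCH2 mutants and 4 between the mutants. Over all 4738 tested entries it was under 0.05 for 302, 202 and 301, in the same order. Of the 36 entries, edgeR, DESeq2 and limma-voom each called 0.

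In most opposite-strand pairs of this family the RNA-binding protein gene had the lower count. The 27 entries form 11 pairs in which both genes have an entry, and the list gene was below its partner in 9. Without the pair of Pcbp2 and Map3k12, which was chosen for its high Map3k12 counts, it was 8 of 10, in each case in all 9 libraries. These 10 pairs hold only 8 list genes. No matching share over all opposite-strand pairs is given here, so the numbers describe this list only. Summed over the libraries, Pcbp2 had 4473 counts to 54761 of Map3k12. Hnrnpab had 501 counts to 38221 of Agxt2l2, and Hnrnpu, which encodes a scaffold attachment factor, had 367 to 3918 of Fam36a (Cox20), a gene for assembly of a respiratory complex. Hnrnph3 had 456 to 2624 of Rufy2, Hnrnpf 306 to 663 of 4933440N22Rik, Hnrnpd 163 to 545 of Gm17092 and Pcbp4 167 to 1738 of Gpr62. Ptbp1, the splicing repressor gene, had 106 counts to 12477 of Gm17134, 3064 of BC005764 and 8 of E130317F20Rik. The exceptions were the last of these and Hnrnpk, with 448 counts to 16 of Rmi1. Among 1074 opposite-strand pairs of protein-coding genes with at least 100 counts, the larger count was a median of 9.13 times the smaller. Map3k12 and Pcbp2 were at 12.2, and 44.2% of the pairs had a larger ratio, so the imbalance of this pair was near the middle of all pairs. By summed counts it was the tenth highest pair.

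**Figure D5:**
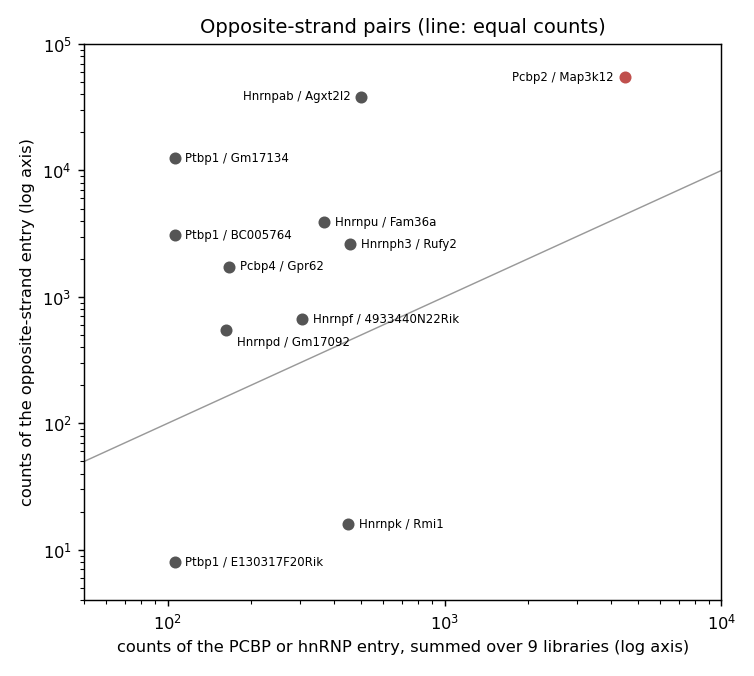
Counts of each PCBP or hnRNP entry (x axis) and of the entry on the opposite strand (y axis), both summed over 9 libraries on log axes, with a line at equal counts. Of the 11 pairs 9 lie above the line, Pcbp2 with Map3k12 farthest to the right at 4473 and 54761 counts.

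Genes tied to other roles of PCBP2 were read from 8 entries. Fth1 and Ftl1, which encode the heavy and light chains of ferritin, the iron store that PCBP proteins load, had 61 to 190 and 26 to 100 counts. Ncoa4, the receptor gene for ferritin breakdown, had 31 to 56. Mavs, the antiviral adaptor whose protein PCBP2 helps to remove through the ligase encoded by Itch, had 0 to 9 counts and Itch 1 to 13, while the iron exporter gene Slc40a1 was at 0 in every library. Fth1, Ftl1 and Ncoa4 were tested and 0 were called. Fth1 was at -0.99 in PINCH1 mutants (SE 0.22, edgeR adjusted p = 0.172) and at -0.25 in PINCH2 mutants (SE 0.22, edgeR adjusted p = 0.999). The medians of the 3 were -0.34 in PINCH1 mutants, -0.25 in PINCH2 mutants and 0.10 between the mutants.

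Entries for most markers of neurons had counts near 0, with the counting strand unknown. Of 14 neuron and axon markers, 10 never passed 3 counts, and Snap25, Syt1, Isl1, Rbfox3, Chat and Slc17a6 were at 0 in every library. Nefm, the gene for the medium neurofilament chain, had 51 to 176 counts. It shares exon bases with Nefl, the light chain gene on the opposite strand, which had 0 to 5. Nefh had 0 to 20. The summed level of the 14 was 96.3 to 177 CPM in controls, 57.4 to 143 in PINCH1 mutants and 121 to 190 in PINCH2 mutants, and Nefm, the only one tested, was at -0.44 in PINCH1 mutants (SE 0.28, edgeR adjusted p = 0.837), at 0.13 in PINCH2 mutants (SE 0.28, edgeR adjusted p = 0.999) and at -0.56 between the mutants (SE 0.28, edgeR adjusted p = 0.808). What part neuronal RNA has in the Map3k12 counts was not tested.

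The other cell types of the nerve were read in the same way. The 12 Schwann cell markers summed to 14198 to 17823 CPM in controls, 11096 to 13931 in PINCH1 mutants and 11509 to 13336 in PINCH2 mutants. The control range lay above both mutant ranges. Median log2 fold changes were -0.52 in PINCH1 mutants, -0.22 in PINCH2 mutants and -0.11 between the mutants. Over all tested entries they were -0.02, 0.00 and -0.02. Of the 12 markers 11, 10 and 12 were below 0, and unadjusted edgeR p was under 0.05 for 5, 2 and 1. Of all 4738 tested entries 52.24%, 49.35% and 52.55% were below 0. Unadjusted edgeR p was under 0.05 for 302, 202 and 301 of them. In each comparison 0 of 12 were called, where 0.0633%, 0.0211% and 0.0844% of all tested entries were. Fibroblast markers summed to 623 to 1374, 780 to 934 and 545 to 911 CPM in the same order of groups. Macrophage markers summed to 557 to 685, 552 to 598 and 474 to 633 CPM. Nearly all of that was Csf1r (454 to 704 counts), which lies over Hmgxb3, while Aif1 was at 0. Muscle markers reached at most 8.17 CPM, with Acta1 and Tnni2 at 0, and endothelial markers at most 19.1 CPM. Of the fibroblast and macrophage markers, 5 and 2 were tested and 0 were called. What part these levels have in the Map3k12 and Pcbp2 values was not tested.

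Entries for the genes around the pair had low counts, with the counting strand unknown. Within 50 kb of the joint span lie 11 other annotated genes, and 6 have an entry. Apart from Gm10337, Sp1, a transcription factor gene, had 5 to 21 counts (1.16 CPM per kilobase), Tarbp2, the gene for a partner of Dicer, 0 to 11 (1.10) and Prr13 0 to 3 (0.532). Amhr2 had 0 to 1 and Npff was at 0 in every library. Pcbp2 shares further exon bases with Gm26518, a long noncoding RNA gene on the minus strand that was not analysed here.

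The entries whose levels ran most like that of Map3k12 were named by Pearson's correlation on log2 CPM over the 9 libraries, as a description. They were Ntan1 (r = 0.956, over Pdxdc1), 1110002L01Rik (0.948, over Asxl2 and Kif3c), Aktip (0.943, over Rbl2), Adck3 (0.938, over Cdc42bpa) and Ifrd2 (0.928, with no opposite-strand gene). Ntan1 had 2572 to 3178 counts and Aktip 340 to 548. A correlation above 0.8 was found for 137 tested entries. For Pcbp2 the 5 nearest were Rad9b (0.929), Pkmyt1 (0.920), Pigb (0.918), Gm3235 (0.914) and Loxl3 (0.901), and 58 entries were above 0.8. The members of each set share depth and scaling with the entry they resemble.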

How the data were processed

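Per the labels' protocols, total RNA of pooled sciatic nerves went into TruSeq libraries. The tools HISAT2 2.0.5, Trim Galore 0.4.2 and cutadapt 1.9.1 and the mouse build GRCm38 are named, per the submitters' processing notes. The deposited table, made by the authors, holds whole-number read counts per gene entry, not normalized. Not given in the sources used here are the counting tool and its annotation, its strand setting and whether the kit marks strand.

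Counts were tested with edgeR 4.0.16 (limma 3.58.1, R 4.3.3), using filterByExpr, TMM scaling and its robust quasi-likelihood F-test. The 9 libraries entered a single model by genotype. P-values were adjusted over all 4738 tested entries by the Benjamini-Hochberg method, with a threshold of 0.05. SE is the standard error of the log2 fold change, and intervals are 95%. P-values measure the spread between pools. Libraries of a group differed by more than sampling noise (chi-square per degree of freedom 3.75 to 9.51), so none was a plain re-count of another, and whether any came from the same pool was not tested. The procedure was checked on simulated counts. CPM are counts scaled to a library total of 1000000, and a count of 0 allows up to 3 counts, or 2.49 to 3.13 CPM.

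Entries were matched by identifier to GENCODE M21 (96.4% found), exons were merged per gene, and bases shared with opposite-strand exons were counted. The 122 entries with a repeated identifier were kept in the tests and left out of pairs. Sequences come from the M21 transcripts. Python 3.11.15 with scipy 1.17.1 gave the exact permutation tests.

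The named entries are Map3k12 and Pcbp2, genes within 50 kb, all mixed lineage kinases and PCBP genes, up to 3 members of each list by level, the 5 entries most like Map3k12 and the PCBP or hnRNP pairs. Other list members, and the entries most like Pcbp2, were named after their values were seen. The lists are mixed lineage kinases, JNK relay and DLK turnover, injury response targets, PCBP and hnRNP, PCBP2 clients and iron, and markers of neurons, Schwann cells, fibroblasts, macrophages, muscle and endothelium. The entry 4930444A02Rik, first written among the kinases, was dropped because it names another gene. The members and lists were chosen with earlier results of these data known. Alternatives were RLE and upper-quartile scaling, limma-voom, DESeq2 1.42.0, keeping all entries or those with 1 CPM in 3 libraries, the 6 libraries compared, a replicate block, Map3k12 and Pcbp2 summed as 1 entry, other lengths and measures of the pair, and each library left out.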

Additional observations from a re-analysis of the deposited data

How the results depend on the processing

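Neither Map3k12 nor Pcbp2 passed the threshold under any alternative, with edgeR, DESeq2 or limma-voom adjusted p from 0.8101 to 1. Their directions held under every alternative other than leaving out a library. With libraries left out in turn, the log2 fold change of Map3k12 ran from -0.27 to 0.062 in PINCH1 mutants against controls, from -0.01 to 0.26 in PINCH2 mutants against controls and from -0.35 to -0.09 between the mutants. That of Pcbp2 ran from -0.17 to -0.0040, from -0.12 to 0.21 and from -0.30 to 0.023. The reversals were Map3k12 at 0.062 without control 1 (PINCH1 mutants), at -0.0091 without control 3 and -0.015 without PINCH2 mutant 3 (PINCH2 mutants), and Pcbp2, without PINCH2 mutant 3, at -0.12 in PINCH2 mutants and 0.023 between the mutants. The difference in the Pcbp2 share ran from -0.548 to 0.619 percentage points for PINCH1 mutants against controls, from -0.900 to 0.267 for PINCH2 mutants and from -0.120 to 0.705 between them. It reversed to -0.548 without control 1, -0.104 without PINCH1 mutant 1 and -0.0535 without PINCH1 mutant 3, to 0.267 without control 3 and 0.181 without PINCH2 mutant 1, and to -0.120 between the mutants without PINCH2 mutant 1. Values this near 0 changed sign with 1 library, and the cause was not tested.

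Over exons not shared with an opposite-strand gene, the mean level was 785 CPM per kilobase for Map3k12 and 132.4 for Pcbp2, since the same counts are divided by fewer bases. The numbers of entries called over the whole table moved more. In PINCH1 mutants against controls 1 higher and 2 lower entries became 3 higher with DESeq2, 0 lower with limma-voom and with the 6 libraries alone, 8 higher and 7 lower with no filter and 8 and 8 at 1 CPM. In PINCH2 mutants the 1 lower entry became 0 with the 6 libraries alone. Between the mutants 2 higher and 2 lower became 6 and 4 with DESeq2, 1 lower with limma-voom, 12 and 8 with no filter, 13 and 14 at 1 CPM and 5 higher with the 6 libraries. Left-out libraries gave 1 to 4 higher and 0 to 5 lower, 0 to 0 higher and 0 to 1 lower, and 2 to 5 higher and 1 to 4 lower. The cause was not tested.

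Same-numbered libraries correlated at -0.11 to 0.25, over 0.1 in 3 of 9 pairs, and libraries of other numbers at -0.20 to 0.14. Of 9 libraries 5 correlated best with their own number. These values do not settle whether the numbers pair the libraries. The main model did not pair them, and a replicate block was run beside it. With the replicate block, 2 entries were higher in PINCH1 mutants and 0 lower in PINCH2 mutants. Under that block Map3k12 was at -0.13, 0.09 and -0.22 and Pcbp2 at -0.11, 0.04 and -0.15 in the 3 comparisons, with no call changed.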

Other observations

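Other entries of the axon injury pathway also lie over opposite-strand genes, with the larger count on either side. Summed over the 9 libraries, Mapk8ip1 (JIP1, a JNK scaffold) had 494 counts and 1700029I15Rik, with which it shares 96 bp, had 16942. Jun had 17 counts and BC042782 899, over 232 bp. Gadd45a, a stress response gene, had 136 counts and E230016M11Rik 788, over 337 bp. In these 3 pairs the pathway gene was below its partner in all 9 libraries. In others it was above: Mapk8ip3 had 14367 counts where Mrps34, with which it shares 1309 bp, had 13, Ddit3 had 698 where Mars had 164, and Stat3 had 120 where Stat5a had 7. Among the mixed lineage kinases, Map3k11 had 173 counts where Pcnxl3 had 48, and Map3k10 had 11 where Ttc9b had 4.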
